A study of Homo sapiens with 4 samples.

Results

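The genes described here are targets of the transcriptional co-activator YAP1 and its TEAD partners, other than the CCN family, together with the angiomotin family and the genes of caveolae. They were chosen by name, with earlier results of these data known, and 31 of the 32 named genes had a row among the 19626 genes of the deposited tables. For short, all of them are called target genes or targets below, including those taken in with the angiomotin and caveolar genes. CAVIN2 had no row and was not analysed here. AMOT was read at 0 and 1 counts in the control libraries and at 0 and 2 in the knockdown libraries, too few for a test. The other 30 were tested, and each had an RPKM (a count corrected for how long the transcript is and how deeply the library was read) above 1 in all 4 libraries.

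ES-2 is an established human cell line, labelled as ovarian clear cell carcinoma, that carries an endogenous fusion of YAP1 with MAML2 (YM). Cells were transduced with pLKO.1 lentivirus expressing a non-targeting, scrambled shRNA (shCtl, n = 2 biological replicates) or an shRNA against a sequence that MAML2 shares with the fusion (shM2-3, n = 2). By the labels, virus was added for 8 h on each of 2 consecutive days and RNA was isolated at 96 h after the first infection. The study's methods give 72 h of transduction for these samples, and their general protocol describes shorter infections over more days. Both groups therefore carry the vector and its infection, the comparison rests on 1 cell line and 1 targeting shRNA, and the shRNA acts on native MAML2 as well as on the fusion.

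In the Hippo pathway, a kinase cascade that ends in LATS1 and LATS2 phosphorylates YAP1 and keeps it out of the nucleus. Unphosphorylated YAP1 enters the nucleus and binds TEAD factors, which recognise short DNA elements with the core CATTCC, and the complex raises transcription of genes for growth, adhesion and matrix. Several of these targets, among them the angiomotins, LATS2 and AJUBA, encode proteins that act back on YAP1 or on its kinases. The YM fusion joins the TEAD-binding part of YAP1 to the activation domain of MAML2, a co-activator of Notch signaling. The comparison asks which known YAP1/TEAD targets depend on the fusion and MAML2 in these cells.

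Estimated counts summed to between 20051083 and 23978660 per library. MAML2, the targeted gene, had an RPKM of 8.61 and 8.26 in shCtl and of 3.11 and 2.998 in shM2-3, which is a log2 fold change of -1.40 (standard error 0.0688). The fusion transcript carries part of MAML2, so reads of both can fall in this row, and the fall of each alone is not known. Replicates differed by 3.44 times (shCtl) and 3.98 times (shM2-3) what sampling of reads alone gives, as a chi-square per degree of freedom. Of 10 ovarian clear cell and epithelial markers, 9 had a row, and 4 (ANXA4, KRT7, KRT8 and KRT18) had an RPKM above 1 in any library. The defining markers NAPSA and PAX8 had an RPKM of at most 0.369 in every library, so the clear cell label is not borne by them. The summed RPKM of the epithelial list was 642 in each shCtl library and between 319 and 322 in shM2-3. That of 6 fibroblast markers was 7.95 to 8.01 in shCtl and 25.1 to 25.7 in shM2-3, nearly all of it PDGFRA, while COL1A2, COL3A1, DCN, LUM and POSTN had an RPKM of at most 0.413 in every library. That of 6 leukocyte markers was 1.67 to 1.81 and 1.37 to 4.67, and that of 5 endothelial markers was 9.40 to 10.6 and 5.10 to 5.67, mostly CDH5. PTPRC, VWF and TEK had an RPKM of at most 0.0855 in every library. PECAM1 had 0.0376 and 0.0308 in shCtl against 1.31 and 0.922 in shM2-3, CD53 0.105 and 0.129 against 1.01 and 0.190, CD14 0.0777 and 0.102 against 0.890 and 0.866, and CDH5 9.14 and 10.2 against 4.17 and 4.03. Of the other leukocyte markers, LYZ had 0.945 and 0.423 in shCtl against 2.34 and 0.129 in shM2-3. CORO1A was lower, with 0.66 and 1.02 against 0.40 and 0.18. The part of these levels in the results was not tested.

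Of the 30 target genes tested, 15 were called lower and 1 was called higher in shM2-3 cells. A call required a fold change of 2 or more and, in the quasi-likelihood test of edgeR, a p of at most 0.05 after Benjamini-Hochberg correction over all genes. Among all 12157 genes tested, 8.93% were called lower and 9.24% were called higher, against 15 and 1 of the 30 target genes. The median log2 fold change was -0.97 for the target genes and -0.004 for all genes. By adjusted p alone, 25 target genes were lower and 4 were higher, or 83.3% and 13.3% of them, beside 36.4% and 36.3% of all genes. The shares of all genes are also the background for the counts of each smaller group and list below. On the RPKM scale, both shM2-3 libraries lay below both shCtl libraries for 26 target genes and above them for 4, which 47.1% and 38.9% of all genes also did in each direction. In bulk RNA, fewer cells that express a gene and less of its RNA per cell cannot be told apart.

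**Figure D1:**
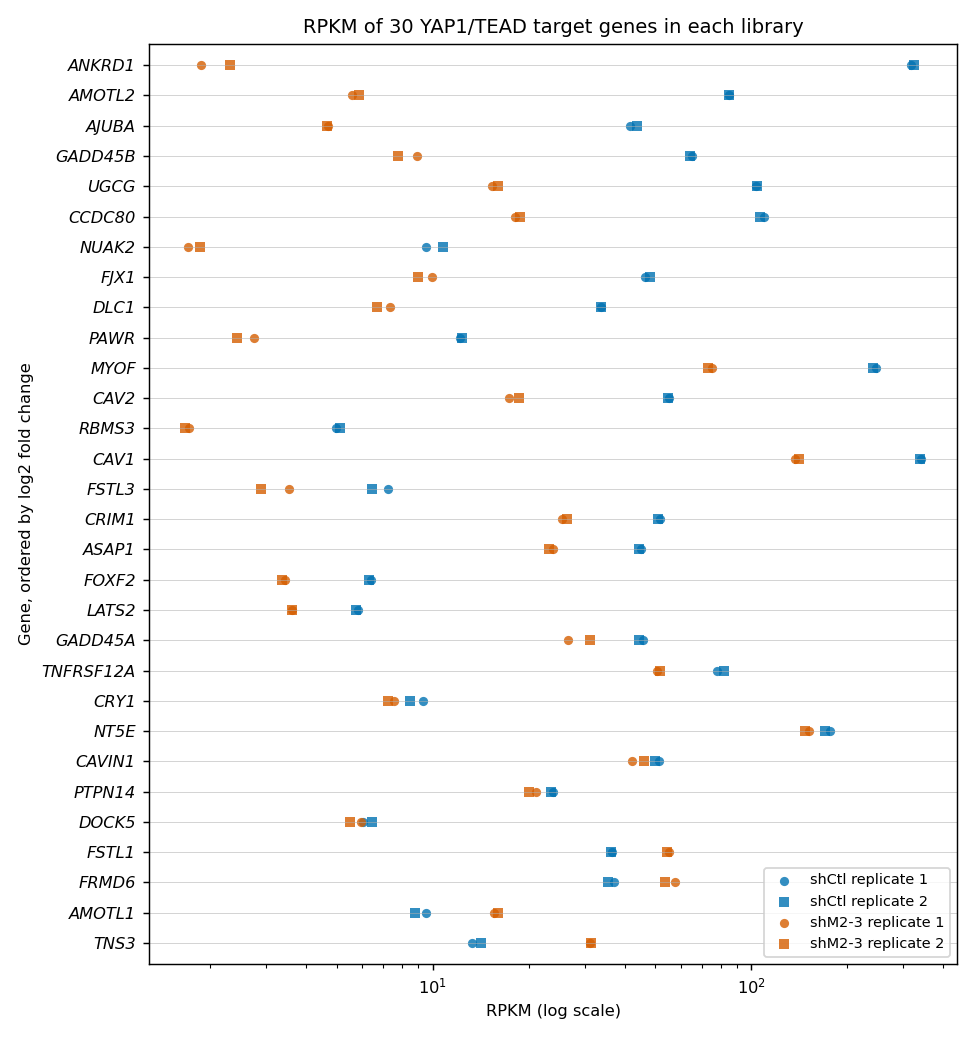
RPKM on a log scale (horizontal axis) of the 30 target genes tested, 1 row per gene from the lowest to the highest log2 fold change, with a point for each of the 2 shCtl (blue) and 2 shM2-3 (orange) libraries. The replicates sit close together, and the gap between colours runs from ANKRD1 (321 against 2.09 on average) to DOCK5, where 6.02 in shCtl nearly meets 5.95 in shM2-3. In the last 4 rows the orange points lie to the right.

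ANKRD1, a stress-induced nuclear and sarcomeric protein and a standard reporter of YAP1/TEAD activity, fell furthest. Its RPKM was 317 and 325 in shCtl and 1.88 and 2.30 in shM2-3, so that 0.651% of the control level remained. The log2 fold change was -7.20 (standard error 0.0706, adjusted p = 8.08e-17), the 4th lowest of all 12157 genes tested. By RPKM it ranked 133rd of 19626 genes in shCtl and 9931st in shM2-3. The gene lies on the minus strand of chromosome 10 (hg38, 90912096 to 90921087), and no exon of another annotated gene overlaps its exons.

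The 250 bases before the RefSeq start of ANKRD1 are shown because they hold the TEAD core on 2 occasions, both as the reverse complement GGAATG, beginning 220 and 128 bases before the start. AMOTL2 and AJUBA, the targets that fell next furthest, each have 2 annotated starts with an entry, and the core stands before 1 of them, 69 and 59 bases away. GADD45B, UGCG and CCDC80, which fell next furthest after these, have entries without the core. NUAK2, which also fell, holds it 197 and 18 bases before its start. FOXF2 and PTPN14 are shown for contrast, since they carry the core 196 and 200 bases before the start and were not called. Sequences are read 5′ to 3′ along the gene from RefSeq (GRCh38.p14), with CATTCC or GGAATG in capitals.
ANKRD1, chr10:90921088-90921337, minus strand: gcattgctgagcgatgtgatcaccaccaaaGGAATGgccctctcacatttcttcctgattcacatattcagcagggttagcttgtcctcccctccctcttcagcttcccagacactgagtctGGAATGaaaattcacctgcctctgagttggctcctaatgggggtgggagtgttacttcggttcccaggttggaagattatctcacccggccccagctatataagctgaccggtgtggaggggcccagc
AMOTL2, chr3:134374484-134374543, minus strand: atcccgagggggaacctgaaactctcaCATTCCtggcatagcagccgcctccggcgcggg
AJUBA, chr14:22976869-22976928, minus strand: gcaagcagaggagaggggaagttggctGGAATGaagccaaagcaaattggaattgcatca
NUAK2, chr1:205321746-205321969, minus strand: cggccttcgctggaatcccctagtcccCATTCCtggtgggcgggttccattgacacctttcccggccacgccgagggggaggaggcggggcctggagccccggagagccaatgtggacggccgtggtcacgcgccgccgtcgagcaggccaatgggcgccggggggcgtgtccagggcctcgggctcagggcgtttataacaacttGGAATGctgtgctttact
FOXF2, chr6:1389353-1389412, plus strand: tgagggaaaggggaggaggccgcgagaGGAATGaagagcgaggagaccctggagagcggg
PTPN14, chr1:214551770-214551829, minus strand: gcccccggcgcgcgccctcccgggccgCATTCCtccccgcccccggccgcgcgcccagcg

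Windows from 250 bases before to 50 bases after a start were searched on both strands for CATTCC and for the AP-1 core TGACTCA, whose reverse complement is TGAGTCA and which shares no overlap with the TEAD core. Among all 35116 RefSeq windows, 14.0% held CATTCC and 4.95% held TGACTCA. In the 13941 windows of genes tested these shares were 11.5% and 3.55%. Of the 32 windows of the measured target genes, 7 held CATTCC, each from a different gene, and 0 held TGACTCA. Besides the 6 genes printed above, LATS2 had the TEAD core 10 bases after its start. Entries were found for 24 of the 31 genes (77.4%), below the 80% needed, so a comparison of shares is void. GADD45A, CRIM1, TNFRSF12A, ASAP1, DOCK5, DLC1 and CAVIN1 had no entry. A match describes the letters in the window and does not show binding.

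**Figure D2:**
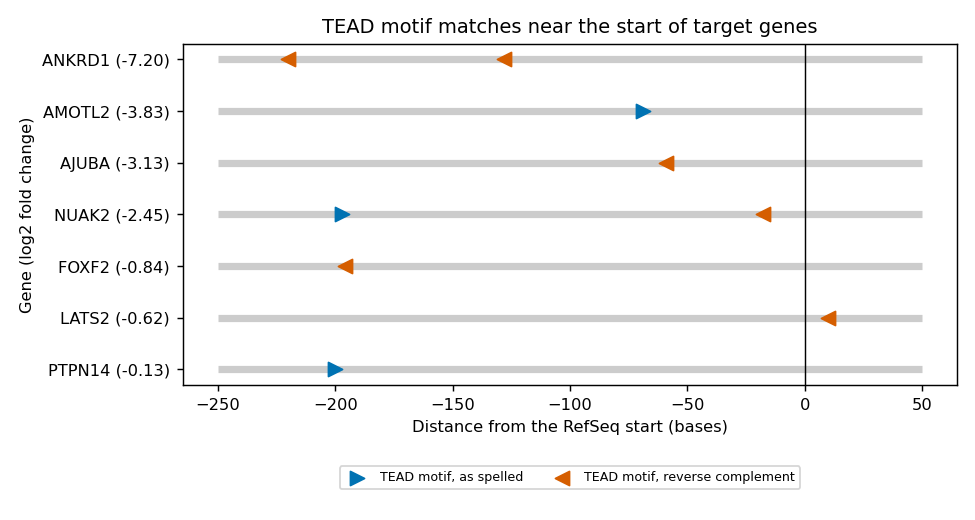
Position of each TEAD core (triangles) relative to the RefSeq start, in bases on the horizontal axis, for the 7 target genes with a match in the window (grey bar), with the log2 fold change beside each name. Matches stand between 220 bases before and 10 bases after the start, in genes with log2 fold changes from -7.20 to -0.13, 4 of which were called lower. Of all 30 target genes tested, 15 were called lower.

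The Hippo regulators among the targets diverged. Of 7 tested, 3 were called lower (AMOTL2, AJUBA and NUAK2) and none higher, 5 were lower and 2 higher by adjusted p alone, and the median log2 fold change was -0.62. The angiomotins, scaffolds that bind YAP1 and hold it at junctions and actin, moved in opposite directions. AMOTL2 had an RPKM of 85.0 and 85.0 in shCtl and 5.57 and 5.86 in shM2-3. Its log2 fold change of -3.83 (standard error 0.0495, adjusted p = 1.09e-15) was the 43rd lowest of all genes tested. AMOTL1 had an RPKM of 9.50 and 8.81 in shCtl and 15.5 and 16.0 in shM2-3, a log2 fold change of 0.85 (standard error 0.0508, adjusted p = 4.12e-09), short of the fold limit. In shCtl the level of AMOTL2 per length was thus well above that of AMOTL1, and in shM2-3 it was below it. The third member, AMOT, was at or under 2 counts in every library, so no fold is given.

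AJUBA, a LIM protein that binds LATS kinases at junctions under tension, fell from an RPKM of 41.5 and 43.7 to 4.67 and 4.66, a log2 fold change of -3.13 (standard error 0.0527). NUAK2, a kinase of the AMPK family known to promote YAP1 activity, went from 9.55 and 10.8 to 1.70 and 1.86, a log2 fold change of -2.45 (standard error 0.109). In neither gene did the groups overlap, which in the lower direction was also so for 47.1% of all genes tested. NUAK2, with the fewer counts, had the wider error. LATS2, the kinase that phosphorylates YAP1, had an RPKM of 5.83 and 5.75 in shCtl and 3.601 and 3.61 in shM2-3. With a log2 fold change of -0.62 (adjusted p = 1e-05), it missed the fold limit. PTPN14, a phosphatase that binds YAP1, was nearly level, at 23.8 and 23.6 against 21.1 and 20.1 RPKM, a log2 fold change of -0.13 with a 95% interval from -0.22 to -0.05 (adjusted p = 0.00894 over all genes). Without shM2-3 replicate 2 the PTPN14 value was -0.10 (adjusted p = 0.0602). FRMD6, a FERM-domain protein placed upstream of the kinases, was higher, at 37.2 and 35.6 RPKM in shCtl and 57.5 and 53.4 in shM2-3, a log2 fold change of 0.67 (adjusted p = 1.59e-08).

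All 7 targets with nuclear, stress or RNA-binding roles were lower by adjusted p, 4 of them were called, and the median log2 fold change was -1.51. GADD45B and GADD45A encode stress sensors that act on p38 kinase signaling and the cell cycle. GADD45B had an RPKM of 65.3 and 64.1 in shCtl and 8.91 and 7.76 in shM2-3, a log2 fold change of -2.89 (standard error 0.0753). GADD45A had an RPKM of 45.8 and 44.5 in shCtl and 26.5 and 31.2 in shM2-3, a log2 fold change of -0.58 (standard error 0.0771). Both were lower in each knockdown library, and only GADD45B passed the fold limit. The difference between them was not tested.

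PAWR, a pro-apoptotic leucine zipper protein, fell from an RPKM of 12.2 and 12.4 to 2.74 and 2.42, a log2 fold change of -2.18 (standard error 0.0617). RBMS3, an RNA-binding protein, fell from 4.97 and 5.13 to 1.71 and 1.67, a log2 fold change of -1.51 (standard error 0.0786). These genes and ANKRD1 and GADD45B are the called members of this group. FOXF2, a forkhead factor, had an RPKM of 6.39 and 6.30 in shCtl against 3.42 and 3.35 in shM2-3, a log2 fold change of -0.84 (adjusted p = 2.26e-05). CRY1, a repressor of the circadian clock, had 9.28 and 8.497 against 7.53 and 7.21, a log2 fold change of -0.20 with a 95% interval from -0.39 to -0.02 (adjusted p = 0.0472). CRY1 stayed lower with each library left out, but its adjusted p passed 0.05 only without shCtl replicate 2 (-0.27, adjusted p = 0.0203). It was 0.267 without shCtl replicate 1 (-0.14), 0.0909 without shM2-3 replicate 1 (-0.23) and 0.175 without shM2-3 replicate 2 (-0.18), and with all libraries it was 0.161 with DESeq2 and 0.0517 with DESeq2 size factors in edgeR.

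**Figure D3:**
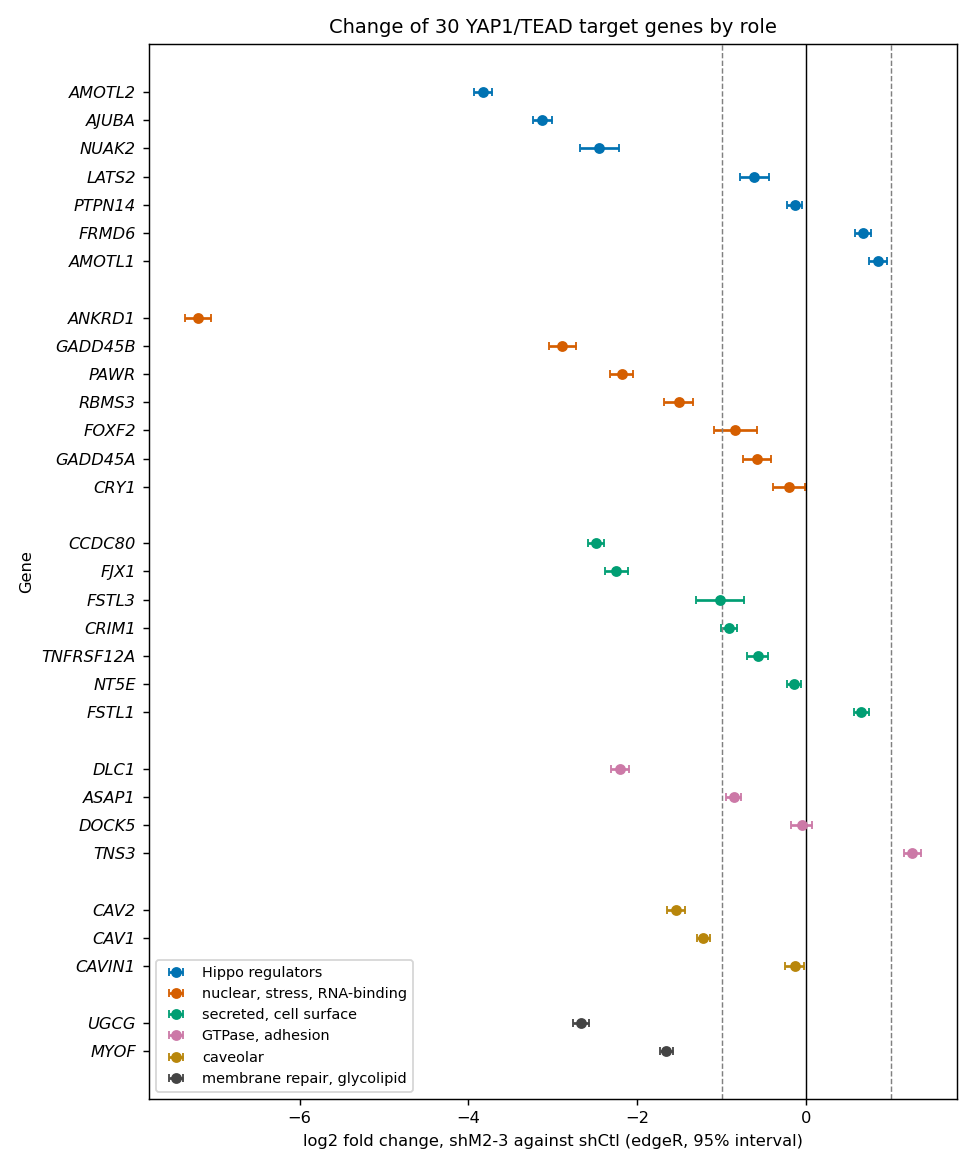
log2 fold change of shM2-3 against shCtl (horizontal axis) for the 30 target genes, grouped and coloured by role, with 95% intervals from edgeR's quasi-likelihood fit as bars and dashed lines at a fold change of 2. The nuclear, the caveolar, and the membrane repair and glycolipid groups lie below 0 throughout, whereas AMOTL1, FRMD6, FSTL1 and TNS3 lie above it. The intervals of FSTL3, FOXF2 and CRIM1 cross the lower dashed line.

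Of 7 secreted and cell surface targets, 3 were called lower, 6 were lower and 1 higher by adjusted p alone, and the median log2 fold change was -0.92. CCDC80, a secreted matrix protein, had an RPKM of 109 and 107 in shCtl and 18.1 and 18.7 in shM2-3, a log2 fold change of -2.49 (standard error 0.0441). FJX1, the secreted kinase-like ortholog of fly Four-jointed, went from 46.3 and 48.2 to 9.96 and 8.99, a log2 fold change of -2.25 (standard error 0.062). Both falls were far outside the spread between replicates. FSTL3, a secreted inhibitor of activin, had 7.21 and 6.43 in shCtl and 3.53 and 2.88 in shM2-3. Its log2 fold change of -1.02 (standard error 0.131, adjusted p = 9.95e-06) was the call closest to the limit, and it became -0.93 without shCtl replicate 1 and -0.89 without shM2-3 replicate 2, both short of a fold change of 2. Its paralog FSTL1, a secreted glycoprotein, was higher, at 36.5 and 36.3 RPKM against 55.03 and 54.3, a log2 fold change of 0.65 (standard error 0.0396).

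The other surface targets changed by less than the fold limit. CRIM1, a membrane protein that binds bone morphogenetic proteins, had an RPKM of 51.8 and 50.7 in shCtl and 25.5 and 26.5 in shM2-3, a log2 fold change of -0.92 (standard error 0.043). TNFRSF12A, the receptor for the cytokine TWEAK, had 77.9 and 81.8 against 50.5 and 51.7, a log2 fold change of -0.58 (standard error 0.0558). For TNFRSF12A, 40 exon bases are shared with CLDN6 on the opposite strand, and the reads of the pair cannot be separated without strand. NT5E, the ectoenzyme CD73 that makes adenosine from AMP, stayed abundant, at 176 and 171 RPKM in shCtl and 152 and 148 in shM2-3. Its log2 fold change was -0.15, with a 95% interval from -0.23 to -0.07 (adjusted p = 0.00308), and its rank by RPKM was 233rd and 236th of 19626 genes. In shM2-3 cells NT5E was the most abundant of the target genes per length, whereas in shCtl cells CAV1 was.

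Caveolae are flask-shaped pits of the plasma membrane whose coat is built of caveolins and cavins. Both caveolins were called lower, and the cavin was not. CAV1, the principal caveolin, had an RPKM of 340 and 338 in shCtl and 137 and 141 in shM2-3, a log2 fold change of -1.22 (standard error 0.0371, adjusted p = 3.39e-12). CAV2, its partner in the coat, had 55.2 and 54.7 against 17.4 and 18.6, a log2 fold change of -1.55 (standard error 0.0499, adjusted p = 6.38e-12). The genes are neighbours on the plus strand of chromosome 7, with CAV2 from 116499738 to 116508541 and CAV1 from 116525009 to 116561185 in hg38. CAVIN1, the coat cavin, had 51.3 and 49.98 in shCtl against 42.1 and 46.0 in shM2-3. Its log2 fold change was -0.14, with a 95% interval from -0.25 to -0.03 (adjusted p = 0.0267), and the adjusted p was 0.0538 with DESeq2. Without shM2-3 replicate 1 the log2 fold change of CAVIN1 was -0.07 (adjusted p = 0.262), without shM2-3 replicate 2 it was -0.21 (adjusted p = 0.00372), and without shCtl replicate 1 it was -0.11 (adjusted p = 0.097). Of 7 other caveolar genes (further caveolins and cavins, EHD ATPases and PACSIN2), 5 could be tested: 1 was called lower, EHD4 at -1.62, and 1 called higher, EHD1 at 1.09. By adjusted p alone 1 was lower and 4 were higher, and the median was 0.43.

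UGCG and MYOF, which act at membranes outside the caveolar coat, were both called lower. UGCG, which makes glucosylceramide and so commits ceramide to glycosphingolipids, had an RPKM of 104 and 104 in shCtl and 15.3 and 16.0 in shM2-3, a log2 fold change of -2.67 (standard error 0.0455). MYOF, a ferlin of membrane repair and vesicle fusion, had 246 and 242 against 75.0 and 73.0, a log2 fold change of -1.66 (standard error 0.0354). MYOF took 0.195% of all counts in shCtl and 0.0605% in shM2-3.

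Of 4 regulators of small GTPases and adhesion, 1 was called lower and 1 higher, and the median log2 fold change was -0.46. DLC1, a GTPase-activating protein of focal adhesions, fell from an RPKM of 33.8 and 33.7 to 7.33 and 6.69, a log2 fold change of -2.20 (standard error 0.0486). ASAP1, an Arf GAP of invadopodia and focal adhesions, had 45.1 and 44.3 against 23.9 and 23.2, a log2 fold change of -0.86 (standard error 0.0413). DOCK5, an exchange factor for Rac, had 6.02 and 6.44 against 5.95 and 5.51. At a log2 fold change of -0.05, with a 95% interval from -0.18 to 0.07 (adjusted p = 0.423), it was the only target gene tested that did not reach an adjusted p of 0.05. TNS3, a tensin that links integrins to actin and binds DLC1, was the only target called higher, from 13.3 and 14.1 RPKM in shCtl to 31.3 and 31.4 in shM2-3, a log2 fold change of 1.26 (standard error 0.0451, adjusted p = 1.92e-11).

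**Figure D4:**
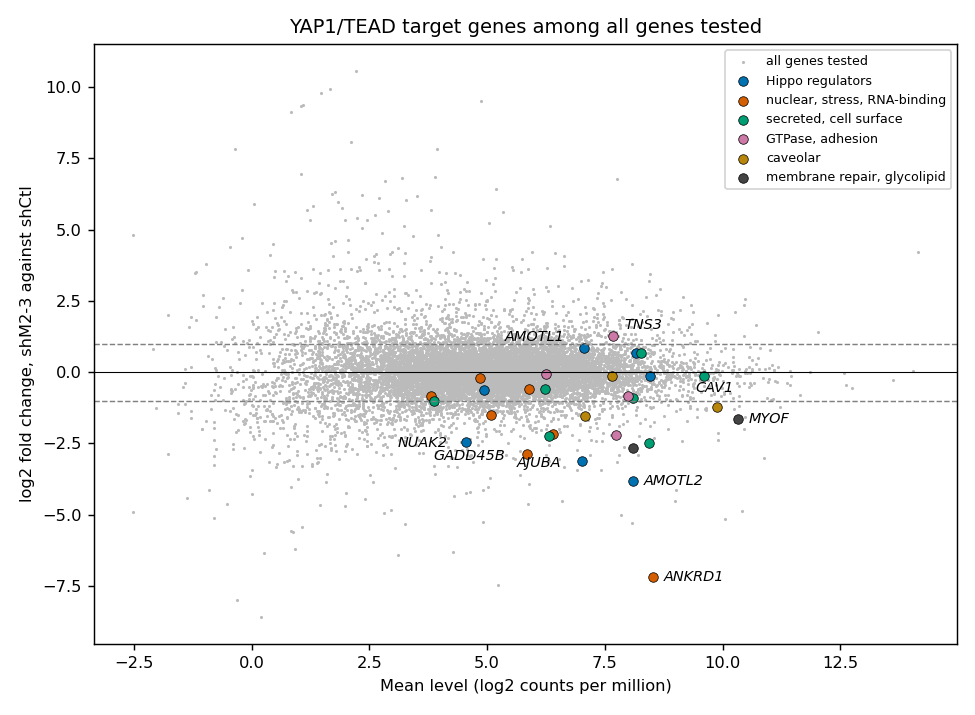
log2 fold change (vertical axis) against mean level in log2 CPM, the count as a share of the library (horizontal axis) for all 12157 genes tested (grey) and the 30 target genes (coloured by role), with dashed lines at a fold change of 2. ANKRD1 stands apart at -7.20, 15 of the target genes lie below the lower line, and TNS3 alone among them lies above the upper line.

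Summed over the measured target genes, the mean RPKM was 2070 in shCtl and 833 in shM2-3. Among the 500 most abundant genes by RPKM were 6 of them in shCtl and 2 in shM2-3, NT5E and CAV1. Of the 15 that were called lower, 10 fell at least 4-fold, and their adjusted p was at most 9.95e-06. The levels of the tested genes ranged from 5.05 (RBMS3) to 339 (CAV1) RPKM in shCtl, and from 1.69 (RBMS3) to 150 (NT5E) in shM2-3.

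Other genes of the pathway were read from lists fixed by name, with earlier results of these data known. Of 45 other YAP1/TEAD targets, 44 had a row and 40 were tested, of which 18 were called lower and 3 higher, with a median log2 fold change of -0.52. By adjusted p alone these were 25 and 13. The lowest was EDN1, the vasoconstrictor endothelin-1, at -5.34, with 15 and 6 counts left in shM2-3, and the highest was ARHGEF17, a guanine nucleotide exchange factor, at 1.28. The Hippo list, which holds YAP1, TAZ, the TEAD and VGLL genes, kinases and scaffolds, had a row for 31 of its 33 genes. Among the 29 tested, 3 were called lower and 4 higher, 10 were lower and 13 higher by adjusted p alone, and the median was 0.14. WWC1 (KIBRA), a scaffold that activates LATS kinases, was the lowest at -3.33 (standard error 0.0567), and TEAD2 was the highest at 1.81 (standard error 0.106). The targets listed here thus had more called lower than higher, as did the other targets, while the Hippo list was near balance. The other targets include CCN1, CCN2, AXL, ITGB2 and IGFBP3, which the study had already reported as lower in these same libraries. Each of these genes was called lower here, so part of that list's lower count was known beforehand and it is not an independent second set. Of all genes tested, 8.93% were called lower and 9.24% higher, and by adjusted p alone 36.4% were lower and 36.3% higher. Differences between the lists were not tested.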

How the data were processed

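RNA-seq of ES-2 cells (shCtl, n = 2, and shM2-3, n = 2) was analysed. The values start from the tables the authors deposited, which hold estimated counts (not always whole) and RPKM per RefSeq gene. The submitters' processing notes name hg38, HISAT2 (2.0.4) and Partek (7.18). The kit keeps no strand, so antisense partners cannot be told apart, and the authors had filtered reads on mapping before quantification. Each library has its own column, and samples were grouped by title.

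After rounding, the quasi-likelihood test of edgeR (4.0.16, R 4.3.3) with TMM factors and no block was run on the 12157 genes with RPKM above 1 in at least 1 library. A call required an adjusted p (Benjamini-Hochberg, over all genes) of at most 0.05 and at least a 2-fold change. Standard errors are the log2 fold change divided by the square root of F. SD values and p-values rest on 2 libraries per group, and depth was 20051083 to 23978660 counts. The fit was tested on simulated data. Alternatives were DESeq2 (1.42.0), limma (3.58.1) on log2(RPKM + 0.1) and log2(RPKM + 1), other scalings, filters and fold limits, a replicate block, and leaving out each library. All members, MAML2 and the lowest and highest gene of each other list were named. The members and lists were chosen with earlier results of these data known. Some marker genes are not reported here.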

Additional observations from a re-analysis of the deposited data

How the results depend on the processing

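The 30 target genes kept their direction under each of 12 alternatives, and 357 of 360 values stayed on the same side of the call. The 3 that did not were FSTL3 with limma on log2(RPKM + 1) (-0.90), without shCtl replicate 1 (-0.93) and without shM2-3 replicate 2 (-0.89). The fold limit moved the counts most. At 1.5 in place of 2, target genes gave 19 lower and 4 higher, all genes gave 2302 lower and 2296 higher, other targets 20 lower and 8 higher, the Hippo list 7 lower and 8 higher, and other caveolar genes 1 lower and 2 higher. Without a fold limit, target genes gave 25 lower and 4 higher, all genes 4430 and 4414, other targets 25 lower and 13 higher, the Hippo list 10 lower and 13 higher, and other caveolar genes 1 lower and 4 higher. With limma on log2(RPKM + 1), 596 of all genes and 0 of the other caveolar genes were called higher. With limma on log2(RPKM + 0.1) these were 953 and 1. With the replicate block, 15 target genes were called lower and 1 higher, as without it, and it changed no other call on a count beyond 1.5 times. The replicate numbers share no culture in the labels, and the deviations of same-numbered libraries did not correlate (r = -0.00156 across 11672 genes with a mean of at least 50 counts). The median log2 fold change of all genes moved by less than 0.1 under each scaling. Depth limits AMOT, whose 0 to 2 counts allow no fold, and a pair of libraries per group limits the small changes of CRY1, CAVIN1, PTPN14 and DOCK5.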
